A study of Mus musculus with 6 samples.

Results

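A set of genes that are read as marks of resident, vessel-associated macrophages were followed in Nestin-GFP-positive cells of newborn mouse skin: 10 of 37991 gene rows, matched by Ensembl identifier. They are Fcna, Lyve1, Mrc1, Cd163, F13a1, Folr2, Csf1r, Timd4, C1qa and Stab1. The set was chosen by name, and Fcna and Lyve1 were selected on their higher levels in these mutant libraries, so their difference between groups is described below with no test, and the question was whether they moved with the macrophage genes around them. Dermis with its underlying white fat was taken from 3-day-old pups, and cells were sorted by the Nestin-GFP reporter, which lights up cells in which Nestin regulatory sequence is active. The 3 mutant mice had the genotype Nes-GFP;Nes-Cre;PDGFRα+/[S]D842V: the reporter, a Cre recombinase driven by Nestin sequence, and 1 Pdgfra allele with the constitutively active change D842V. No source used here says what "[S]" means. The 3 control mice are labelled Nes-GFP+ alone, so Cre and the Pdgfra allele cannot be told apart in this comparison. Nothing in the labels names a litter, strain or batch, and the labels' protocols give 3 mice and 3 libraries per genotype.

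Gene counts per library ran from 11912469 to 18792939, and levels are in CPM, a gene's count scaled to a fixed total after TMM adjustment of library size. The targeted gene Pdgfra was lower in the mutants, at 369, 345 and 359 CPM, against 857, 820.0 and 856 CPM in controls. The pericyte genes Rgs5, Pdgfrb and Cspg4 were present in all 6 libraries, and so were the collagen genes of fibroblasts. Of 8 fat cell markers, Lep was at or near 0, and Fabp4 had 195.6, 284 and 213 CPM in mutants, against 112, 117 and 157 CPM in controls (log2 fold change 0.84, edgeR adjusted p = 0.0243, not called when control 1, control 2 or mutant 3 was left out, largest 0.0704). Control replicate 1 stood apart in macrophage genes, which touches several results below. Counts from sorted cells do not show where a cell lay, so a place along vessels was not measured. In bulk RNA, fewer cells of a type and less RNA per cell cannot be told apart.

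Tissue macrophages are long-lived phagocytes that depend on signalling through the receptor Csf1r. Those that lie along small vessels in skin and fat are known for the hyaluronan receptor Lyve1, the mannose receptor Mrc1 and the haemoglobin scavenger receptor Cd163, and they clear debris and macromolecules. None of these genes belongs to macrophages alone: Lyve1 and Stab1 are also made by lymphatic and sinusoidal endothelium, and Mrc1 by lymphatic endothelium. Fcna encodes ficolin A, a secreted lectin with a collagen-like stem that starts the lectin pathway of complement, known in mice from liver and spleen.

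Promoter sequence is shown for Fcna and for Stab1 and F13a1, the members called higher below, so that the members that moved can be compared. RefSeq (GRCm38.p6) gave promoter windows of 250 bases before to 50 bases after the start for 7 of the 10 members, and Lyve1, Csf1r and C1qa had no entry. Capitals mark GAGGAA or its reverse complement TTCCTC, the core of the purine-rich box known for the myeloid factor PU.1. The Fcna window is chr2:25627925-25628224, minus strand. The Stab1 window is chr14:31168592-31168891, minus strand. F13a1 had 2 starts, with windows chr13:37050195-37050494 and chr13:37049164-37049463, both on the minus strand.
Fcna: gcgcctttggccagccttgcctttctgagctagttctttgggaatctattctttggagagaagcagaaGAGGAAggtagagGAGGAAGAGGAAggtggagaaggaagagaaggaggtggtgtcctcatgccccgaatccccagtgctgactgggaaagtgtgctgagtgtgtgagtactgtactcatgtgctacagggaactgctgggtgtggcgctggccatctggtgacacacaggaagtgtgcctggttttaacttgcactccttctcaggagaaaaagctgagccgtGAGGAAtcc
Stab1: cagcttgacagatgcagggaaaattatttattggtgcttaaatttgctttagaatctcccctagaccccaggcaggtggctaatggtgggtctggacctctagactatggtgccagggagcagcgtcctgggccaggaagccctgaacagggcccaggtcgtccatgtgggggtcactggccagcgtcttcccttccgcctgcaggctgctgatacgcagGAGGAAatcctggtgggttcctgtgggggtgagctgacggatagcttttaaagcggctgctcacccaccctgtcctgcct
F13a1 first start: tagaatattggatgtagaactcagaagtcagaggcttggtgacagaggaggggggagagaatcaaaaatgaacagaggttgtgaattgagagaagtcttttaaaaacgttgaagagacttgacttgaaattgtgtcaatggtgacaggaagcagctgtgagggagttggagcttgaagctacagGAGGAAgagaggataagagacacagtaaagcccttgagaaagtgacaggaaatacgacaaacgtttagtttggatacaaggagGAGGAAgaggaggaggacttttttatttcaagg
F13a1 second start: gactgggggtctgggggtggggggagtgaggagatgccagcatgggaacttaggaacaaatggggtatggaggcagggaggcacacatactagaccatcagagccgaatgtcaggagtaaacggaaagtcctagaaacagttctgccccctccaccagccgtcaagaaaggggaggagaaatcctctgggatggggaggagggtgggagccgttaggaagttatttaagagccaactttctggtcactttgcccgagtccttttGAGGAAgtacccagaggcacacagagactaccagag
The 6-base core stood 4 times in the Fcna window, 2 of them back to back, and once in that of Stab1. It stood 3 times in the window of Mrc1, a member not called below. On either strand it was found in 4 of the 7 members (Fcna, Mrc1, F13a1 and Stab1), and 28.3% of all 32851 promoter windows hold it. F13a1 and Folr2 had 2 windows each, so the count of members is not on the same footing as the share of windows. The longer box GAGGAAGT, which contains the core, was found in the second F13a1 window alone among the 7 members, against 3.2% of all windows. The half-site TGCTGAC of the MAF factors was found in the windows of Fcna and Timd4, against 4.67% of all windows. These are matches of letters in short windows, not binding sites.

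Fcna was far higher in every mutant library. It had 16.0, 13.7 and 20.3 CPM in mutants, against 3.01, 5.03 and 5.38 CPM in controls, from 238, 211 and 384 counts in mutants and 47, 60 and 84 counts in controls. The groups did not overlap, mutant replicate 3 was highest and control replicate 1 lowest. The mean was 16.7 ± 3.33 CPM in mutants and 4.47 ± 1.28 CPM in controls (SD, n = 3 each), a fitted log2 fold change of 1.90, or 3.74-fold. Lyve1 had 31.9, 42.2 and 44.2 CPM in mutants, against 13.6, 11.0 and 17.3 CPM in controls. Again the groups did not overlap, and the lowest mutant library lay well above the highest control. Its mean was 39.5 ± 6.59 CPM in mutants and 14.0 ± 3.16 CPM in controls (SD, n = 3 each), a log2 fold change of 1.49, or 2.81-fold. Both values are what chose these genes, so they support nothing further. An antisense transcript, Fcnaos, named after its values were seen, overlaps Fcna in a later annotation. It had 31, 43 and 71 counts in mutants and 13, 11 and 8 in controls. No source used here states whether the counting used strand, so reads of the pair could not be told apart.

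**Figure D1:**
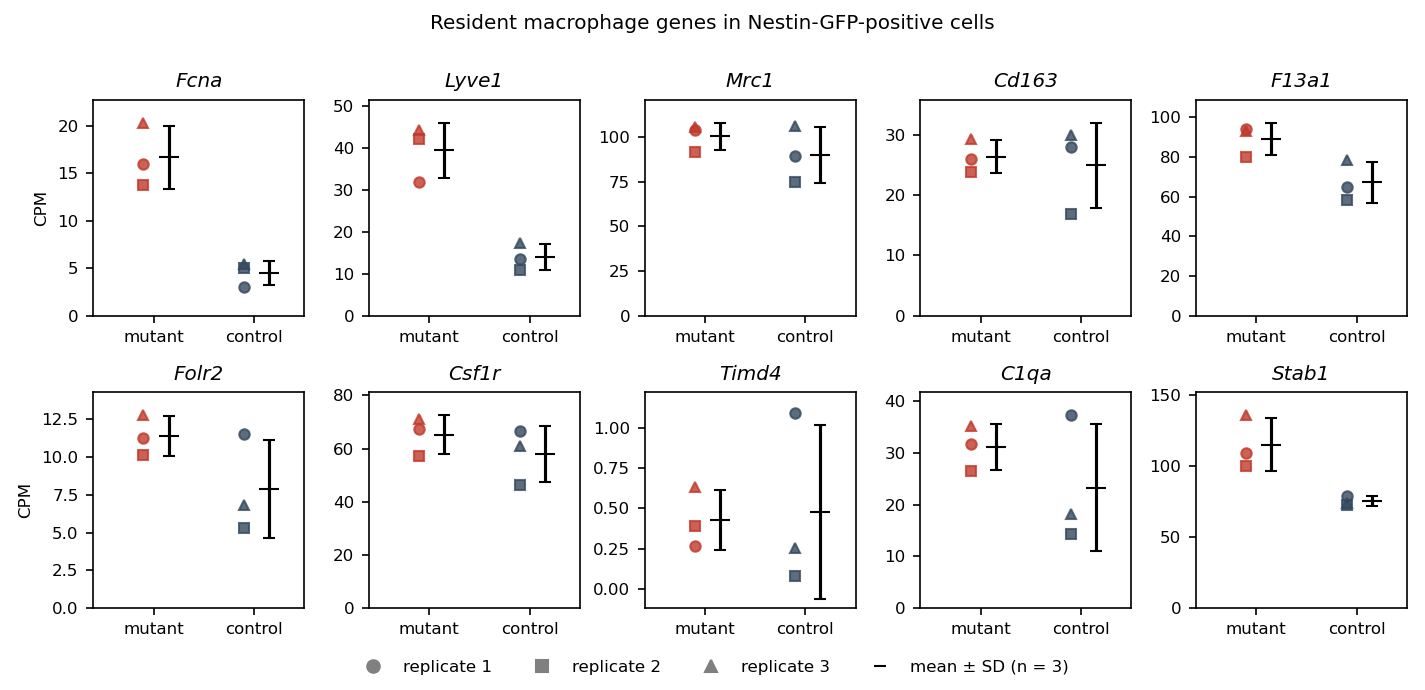
Level of each of the 10 members in CPM (vertical axes, each on its own scale) in mutant and control libraries. Symbols mark replicates and black bars the mean ± SD of 3 libraries. Fcna, Lyve1, F13a1 and Stab1 have no mutant library as low as the highest control, while Mrc1, Cd163, Csf1r, C1qa and Folr2 overlap between the groups.

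The other members showed smaller differences. Of the 8, 7 passed the filter on low counts and 2 rose by edgeR's quasi-likelihood test at an adjusted p under 0.05, Stab1 and F13a1. None fell, also at an unadjusted p under 0.05, where 2 rose. Of all 15035 genes tested, 8.63% were called higher and 9.13% lower. DESeq2 also called 2 higher and 0 lower. The median log2 fold change of the 7 was 0.41, beside 0.01 over all genes tested. The groups did not overlap in Stab1 and F13a1, mutant higher, a pattern held by 19.2% of all genes tested. Leaving out control replicate 2, mutant replicate 1 or mutant replicate 3 left 1 rise, and leaving out control replicate 1 gave 3 rises and no fall, where 7.83% of genes were called higher and 9.8% lower. With no filter on low counts 3 of the 8 rose.

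Among the scavenger receptors, Stab1 rose. Stab1, stabilin-1, takes up modified lipoproteins and matrix fragments, and it had 109, 99.8 and 136 CPM in mutants, against 78.8, 72.7 and 73.9 CPM in controls. The 3 controls lay close together and below every mutant. The log2 fold change was 0.61 (95% interval 0.38 to 0.84, edgeR adjusted p = 0.00352), higher in 3 of 3 mutants, and the call held in all 11 alternatives (largest adjusted p 0.0269). Stab1 overlaps the coding gene Nt5dc2 on the opposite strand, which had 58.1 to 65.7 CPM in mutants and 61.3 to 67.5 CPM in controls (log2 fold change -0.05).

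Mrc1, the mannose receptor, had 104, 91.7 and 105 CPM in mutants, against 89.1, 74.5 and 106 CPM in controls. The highest library of all 6 was control replicate 3, and the other controls lay below every mutant. The log2 fold change was 0.16 (95% interval -0.10 to 0.42, edgeR adjusted p = 0.389). Cd163, which clears haemoglobin bound to haptoglobin, had 26.0, 23.9 and 29.4 CPM in mutants, against 28.1, 17.0 and 30.0 CPM in controls. Only control replicate 2 lay below the mutants. Its log2 fold change was 0.07 (95% interval -0.39 to 0.54, edgeR adjusted p = 0.838), and the sign turned without control replicate 2 (-0.14) and without mutant replicate 3 (-0.01).

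Folr2, a folate receptor of tissue macrophages, had 11.3, 10.1 and 12.8 CPM in mutants, against 11.5, 5.29 and 6.85 CPM in controls. Control replicate 1 lay among the mutants and the other two controls below them. The log2 fold change of 0.52 (95% interval -0.06 to 1.1) was not called, with an edgeR adjusted p of 0.194, and it was 0.89 without control replicate 1 (adjusted p = 0.00387). With no filter it was also called, at 0.52 (adjusted p = 0.0163). Timd4, a phosphatidylserine receptor that marks embryonic macrophages in several tissues, was barely detected. It had 4, 6 and 12 counts in mutants, against 17, 1 and 4 in controls, and it did not pass the filter.

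F13a1, the A subunit of coagulation factor XIII, had 94.4, 79.9 and 93.2 CPM in mutants, against 64.6, 58.5 and 78.4 CPM in controls. Mutant replicate 2 and control replicate 3 lay close together, and the groups just failed to overlap. The log2 fold change was 0.41 (95% interval 0.17 to 0.65, edgeR adjusted p = 0.026). It was not called when control 1, control 2, mutant 1 or mutant 3 was left out (adjusted p up to 0.0913).

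Csf1r, the receptor for macrophage survival signals, had 67.3, 57.1 and 71.3 CPM in mutants, against 66.5, 46.2 and 60.8 CPM in controls. The groups overlapped, and the log2 fold change of 0.17 (95% interval -0.13 to 0.47, edgeR adjusted p = 0.413) was not called. Csf1r lies 15536 bases downstream of Pdgfrb on the same strand in the later annotation, and Pdgfrb had 219 to 239.6 CPM in mutants and 226 to 263 CPM in controls. C1qa, a chain of the complement starter C1q, had 31.7, 26.4 and 35.3 CPM in mutants, against 37.3, 14.3 and 18.2 CPM in controls. Control replicate 1 was the highest of all 6 libraries and the other controls the lowest. The log2 fold change was 0.41 (95% interval -0.64 to 1.45, edgeR adjusted p = 0.541), and without control replicate 1 it was 0.92 and called (adjusted p = 0.000937).

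Per kilobase of exon, the members' order differed between the groups mainly at Fcna and Lyve1. That shift restates the higher mutant levels for which these genes were selected. In mutants C1qa was first, at 29.9 ± 4.29 CPM per kilobase (SD, n = 3), and apart from the rest. Mrc1, Lyve1, F13a1, Fcna, Csf1r and Stab1 then ran from 15.7 to 11.2 CPM per kilobase, and each of these overlapped the next. In controls C1qa was again first, at 22.4 ± 11.8 CPM per kilobase, followed by Mrc1 at 14.1 ± 2.49, then by Csf1r and by F13a1 at 9.97 ± 1.51, which overlapped each other (SD, n = 3). Stab1, Folr2, Lyve1 and Cd163 came next between 7.30 and 4.58 CPM per kilobase, each overlapping its neighbour, and Fcna was ninth at 3.26 ± 0.931. Timd4 was last in both, at 0.198 ± 0.0856 CPM per kilobase in mutants and 0.219 ± 0.247 in controls. Exon lengths come from a later annotation than the counts, so the order is approximate.

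Few genes of the wider macrophage set were called over the 6 libraries. Of 33 pan-macrophage and myeloid genes, all tested, 1 rose and none fell by edgeR, beside the 8.63% and 9.13% of all genes. At an unadjusted p under 0.05 there were 5 higher and 2 lower, and DESeq2 called 1 higher and 1 lower. The median log2 fold change was 0.10. The one called gene was Fcgr3, an Fc receptor, at 13.6 CPM in mutants and 8.98 CPM in controls (log2 fold change 0.59, edgeR adjusted p = 0.0393), not called when control 2, control 3, mutant 1 or mutant 3 was left out (largest 0.124). The summed level of the 33 genes was 328, 307 and 373 CPM in mutants, against 477, 213 and 258 CPM in controls. The control libraries thus lay on both sides of the mutants. An exact permutation test of the sum gave a two-sided p of 0.9, where 3 against 3 libraries cannot go below 0.1.

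That picture turned on control replicate 1. It was the highest of the 6 libraries in 21 of the 33 genes, 63.6%, against 19.2% of all genes tested. Adgre1, the F4/80 antigen, had 10.9 to 14.8 CPM in mutants, against 48.0 CPM in that control and 10.6 and 15.7 CPM in the other controls. Lyz2, a lysozyme, had 22.9 to 28.4 CPM in mutants, against 64.6 CPM in that control and 13.6 and 16.0 CPM in the others. The scavenger receptor gene Marco had at most 0.130 CPM in mutants, against 9.03 CPM in that control and at most 0.256 CPM in the others. Adgre1, Lyz2, Marco and Fos were chosen after their values were seen. Fos, a gene that cell dissociation induces, had 2331 to 2749 CPM in mutants, against 949 CPM in control replicate 1 and 1798 and 1791 CPM in the other controls, and the part of handling in these results was not tested. Without control replicate 1, 12 of the 33 genes were called higher and none lower by edgeR (18 and 2 at an unadjusted p under 0.05), where 7.83% of all genes were called higher, and the median log2 fold change was 0.61. The 12 included C1qb and C1qc (1.09 and 1.31), the other chains of C1q, and the adaptor gene Tyrobp (0.76). Control replicate 1 was the highest library in most of the 33 genes, so leaving it out raises their fold changes by construction. The 12 calls are therefore description. Leaving out control 2, control 3, mutant 1 or mutant 3 gave 0 rises in this list, and leaving out mutant 2 gave 1.

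Without control replicate 1 the log2 fold changes of Fcna and Lyve1, selected for being high, were 1.67 and 1.45, beside a median of 0.61 over the 33 genes. With all 6 libraries that median was 0.10. Without control replicate 1 the log2 fold changes of Ccl6 and Pf4, high among the other genes of resident macrophages, were 1.6 and 1.43. The median of that list was 0.28 without control replicate 1, with 4 of 20 tested genes called higher and 2 lower by edgeR. Of all genes tested in that fit, 7.83% were called higher and 9.8% lower. As a share of the summed pan-macrophage level, Fcna was 4.86%, 4.47% and 5.44% in mutants, against 0.631%, 2.36% and 2.08% in controls. Lyve1 was 9.73%, 13.8% and 11.9% of that sum in mutants, against 2.85%, 5.16% and 6.69% in controls. No mutant share of either gene was as low as the highest control share, and the same held for Folr2 and C1qa. The shares of Fcna and Lyve1 carry the levels for which these genes were selected, so their separation adds no support. How often such separation occurs over all genes was not computed. Folr2 was 3.39 ± 0.0719% of the sum in mutants and 2.52 ± 0.122% in controls, and C1qa was 9.23 ± 0.556% in mutants and 7.2 ± 0.560% in controls (SD, n = 3 each). The shares of the other members overlapped between the groups, and Csf1r was 19.4 ± 0.974% of the sum in mutants and 19.7 ± 5.08% in controls (SD, n = 3 each). On the log2 scale the mean shares of Fcna and Lyve1 were 1.54 and 1.27 higher in mutants, and 1.15 and 0.99 higher without control replicate 1.

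**Figure D2:**
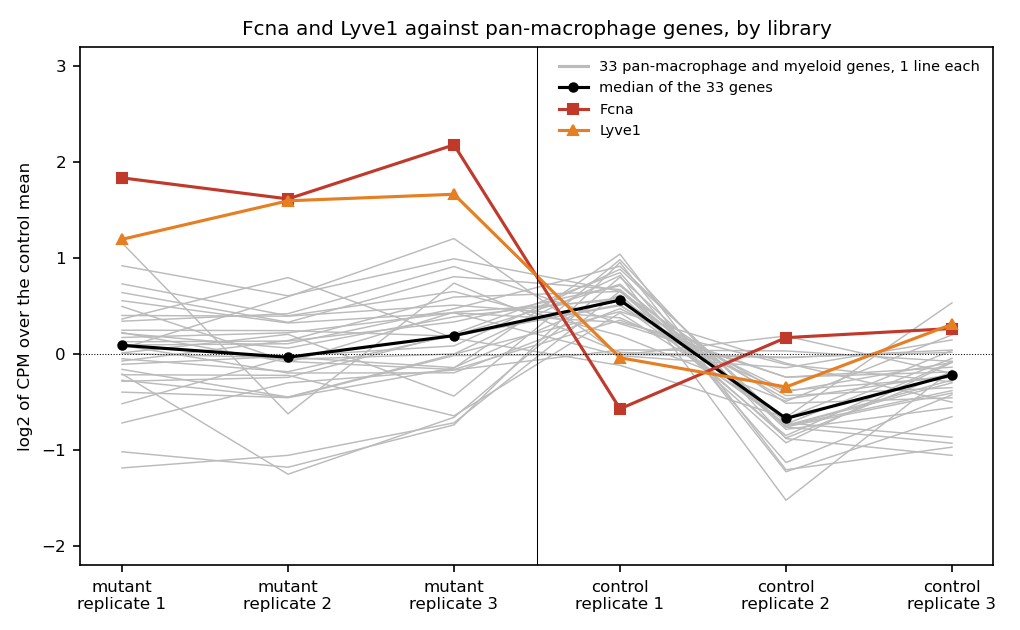
Log2 of each gene's CPM over its control mean (vertical axis) in the 6 libraries (horizontal axis, lines join the values of 1 gene). The 33 pan-macrophage and myeloid genes are grey, their median black, Fcna red and Lyve1 orange. Fcna and Lyve1 lie above nearly all grey lines in the mutants, and in control replicate 1, where the median is highest, Fcna is at its lowest.

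Within the groups the order of the libraries was shared by some genes and not by others. Among the mutants Fcna was highest in replicate 3 and lowest in replicate 2. The same order held for Mrc1, Cd163, Folr2, Csf1r, C1qa, Stab1 and the pan-macrophage sum. F13a1 was highest in mutant replicate 1, while Lyve1 and Timd4 were lowest there. Among the controls Fcna was lowest in replicate 1, where the pan-macrophage sum was highest. Lyve1 was highest in control replicate 3 and lowest in control replicate 2, the order also seen in Mrc1, Cd163 and F13a1. With 3 libraries a group no correlation was computed.

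Other genes of resident macrophages moved both ways. Of 29 listed, 28 matched a gene row and 19 were tested. Of the 19 tested 4 rose and 3 fell, where 8.63% of all genes tested were called higher and 9.13% lower. The median log2 fold change was -0.08, and 0.28 without control replicate 1. Pf4, the chemokine platelet factor 4, made by platelets and by tissue macrophages, had 48.9, 50.7 and 48.2 CPM in mutants, against 24, 16.2 and 19.9 CPM in controls. The mutants were nearly level and far from each control. Its log2 fold change was 1.29 (95% interval 1.03 to 1.55, edgeR adjusted p = 8.4e-05). Of the platelet genes, Itga2b had 7.38, 9.10 and 7.66 CPM in mutants, against 5.44, 6.46 and 5.51 CPM in controls, with no overlap and no call (edgeR adjusted p = 0.056). Gp1bb had 1.34 to 1.69 CPM in mutants and 1.28 to 1.76 CPM in controls, and Gp9 was under 1 CPM everywhere. Ppbp averaged 0.558 CPM in mutants and 0.161 CPM in controls, did not pass the filter, and was called with no filter (edgeR adjusted p = 0.0345). The part of platelets in the level of Pf4 was not tested. Maf, a transcription factor of macrophages that other cell types also make, fell by 0.91 on the log2 scale (edgeR adjusted p = 0.000869). Maf averaged 105 CPM in mutants and 196 CPM in controls. The other rises, chosen after their values were seen, were Igf1 (0.58), a growth factor gene that mesenchymal cells also make, the chemokine gene Ccl6 (1.49) and the leukotriene synthase gene Ltc4s (1.78). The lectin gene Mgl2 (-0.99), also chosen after its values were seen, fell. Leaving out control replicate 2 or mutant replicate 3 left 2 rises, and Ltc4s was called in 5 of the 11 alternatives.

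Of 5 tested genes of Csf1r ligands and of chemokines none was called by edgeR or DESeq2. Of all genes tested 8.63% were called higher and 9.13% lower by edgeR. At an unadjusted p under 0.05, 1 of the 5 was higher and 0 lower by edgeR. Csf1, the main ligand, had 137, 108 and 111 CPM in mutants, against 107, 92.1 and 96.9 CPM in controls (log2 fold change 0.27, edgeR adjusted p = 0.0799), and it was called without control replicate 1, with no filter and with a replicate block. Il34, the second ligand, chosen after its values were seen, had a log2 fold change of 0.17. The monocyte chemokine gene Ccl2 had -0.39 (edgeR adjusted p = 0.346).

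Lyve1 is also a marker of lymphatic vessels, and most of the other lymphatic markers were not called. Of 11 tested lymphatic endothelial markers 3 rose and 1 fell, where 8.63% of all genes tested were called higher and 9.13% lower, with a median log2 fold change of 0.26. The rises were Nrp2 (0.26), Reln (0.47) and Gja4 (0.75), with edgeR adjusted p-values of 0.0318, 0.0333 and 0.0412, and the fall, chosen after its value was seen, was Foxc2, at 0.403, 0.650 and 0.845 CPM in mutants, against 1.28, 1.51 and 1.41 CPM in controls. Leaving out control 3, mutant 1 or mutant 3 left no rise, leaving out control 2 left 1, and the fall was called with control 3 left out and in no other such case. Prox1, the defining transcription factor of lymphatic endothelium, chosen after its values were seen, had 10.1, 10.6 and 15.3 CPM in mutants, against 8.13, 11.1 and 10.1 CPM in controls. The groups overlapped and it was not called (log2 fold change 0.31, 95% interval -0.08 to 0.70, edgeR adjusted p = 0.251). Flt4 (0.39), Pdpn (0.24) and Mmrn1 (0.26), also chosen after their values were seen, were not called. Their edgeR adjusted p-values were 0.254, 0.148 and 0.531, and Pdpn was called without control replicate 1 (0.0158). The summed list was 525 to 558 CPM in mutants and 461 to 492 CPM in controls, and none of its markers was at 0. Nrp2 held the largest part of that sum, with 279, 295 and 293 CPM in mutants, against 225, 255 and 243 CPM in controls. Its call was lost with each library left out in turn. The part of lymphatic RNA in the level of Lyve1 was not tested.

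Among blood endothelial genes the called changes were rises. Of 18 tested markers 6 rose and none fell by edgeR (10 and 0 at an unadjusted p under 0.05, and 9 and 0 by DESeq2), with a median log2 fold change of 0.57. Of all genes tested 8.63% were called higher and 9.13% lower by edgeR. The rises included Tek (0.75), Robo4 (0.98) and Tie1 (0.80), receptors of the vessel wall, with edgeR adjusted p-values of 0.00144, 0.00783 and 0.00791. The other 12 were not called, among them Eng (-0.03), Erg (-0.06), Vwf (-0.11) and Plvap (0.13), chosen after their values were seen. The summed list was 529, 489 and 652 CPM in mutants, against 404, 436 and 380.3 CPM in controls. Mutant replicate 3, which had the most Fcna, Lyve1 and Stab1, also had the highest endothelial sum. No marker of the list was at 0, and the part of endothelial RNA in Stab1, Mrc1 or Lyve1 was not tested. Stab2, the partner of Stab1 on sinusoidal endothelium, was at most 0.256 CPM in any library.

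**Figure D3:**
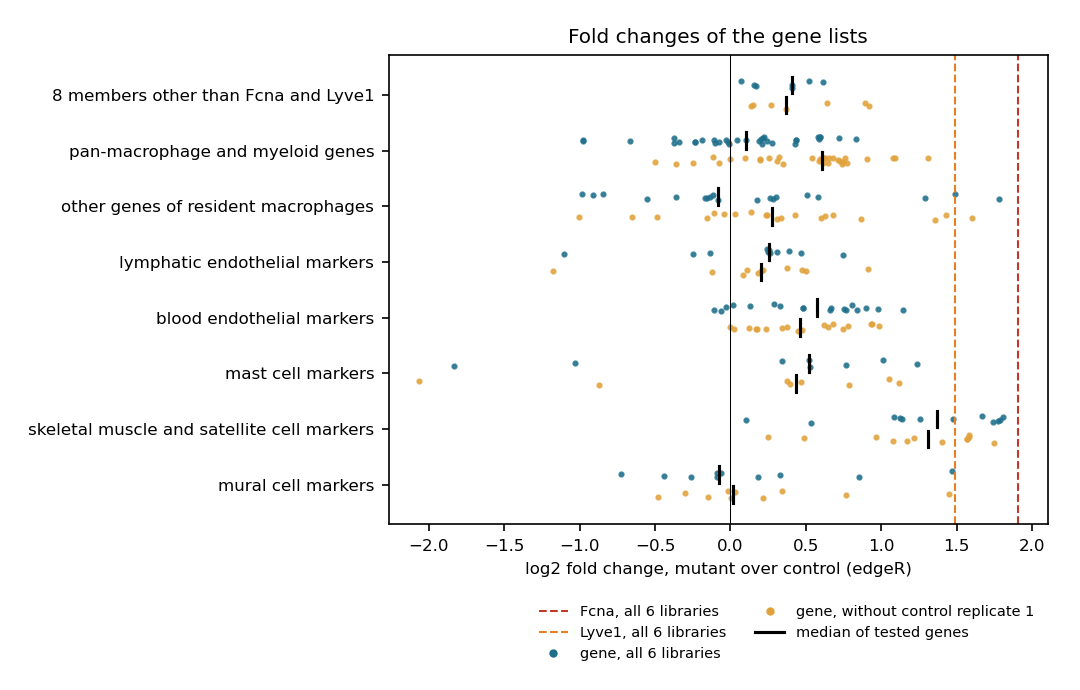
Log2 fold changes, mutant over control, of the tested genes of 8 lists (1 point per gene, black bars are medians), with all 6 libraries in blue and without control replicate 1 in yellow. Dashed lines mark Fcna and Lyve1. The pan-macrophage median is 0.10 with all libraries and 0.61 without control replicate 1, and the muscle list, with a median of 1.37, lies nearest to the dashed lines.

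The genes whose pattern over the 6 libraries was most like that of Fcna were muscle genes. Likeness was the mean absolute difference between log2 CPM profiles, each centred on its own mean, over 13029 other genes averaging 1 CPM or more. The 5 nearest to Fcna were Dcx, a microtubule protein of migrating neurons that regenerating muscle also makes, the myosin light chain Myl1, the sarcomeric actins Actc1 and Acta1, and the myogenic factor Myog, at differences of 0.12 to 0.17. Lyve1 was the nearest member, at 0.36 and rank 63, and the other 7 members in the ranking lay between rank 522 (Stab1) and rank 4195 (Cd163). The 5 nearest to Lyve1 were the alcohol dehydrogenase Adh1, the perinatal myosin Myh8, the actinin Actn2, the fetal acetylcholine receptor subunit Chrng and the imprinted gene Rtl1, at 0.15 to 0.17. Fcna held rank 186 there and the other members ranks 426 to 4173. All these genes share the difference between groups that chose Fcna and Lyve1, so likeness says nothing beyond the pattern itself.

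Muscle genes were also higher in mutants, and Fcna and Lyve1 were selected for that direction, so sharing it adds no support. Skeletal muscle and satellite cell markers numbered 12, of which 10 rose and none fell by edgeR and by DESeq2 (11 and 0 by edgeR at an unadjusted p under 0.05). Of all genes tested 8.63% were called higher and 9.13% lower by edgeR. The median log2 fold change of the 12 was 1.37, and with 1 library left out 7 to 9 rose. Cdh15 (1.14), Chrng (1.80) and Myod1 (1.26) had the smallest edgeR adjusted p-values, 0.00137 to 0.00378. The summed list was 216, 230.4 and 325 CPM in mutants, against 95.4, 114 and 106 CPM in controls. The groups did not overlap, mutant replicate 3 was highest and control replicate 1 lowest, as for Fcna. The order of the other libraries differed: among mutants the muscle sum was lowest in replicate 1 and Fcna in replicate 2. Among controls the muscle sum was highest in replicate 2, where Lyve1 was lowest, and Fcna was highest in replicate 3. None of the 12 was at 0, and the part of muscle cells in the levels of Fcna and Lyve1 was not tested.

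**Figure D4:**
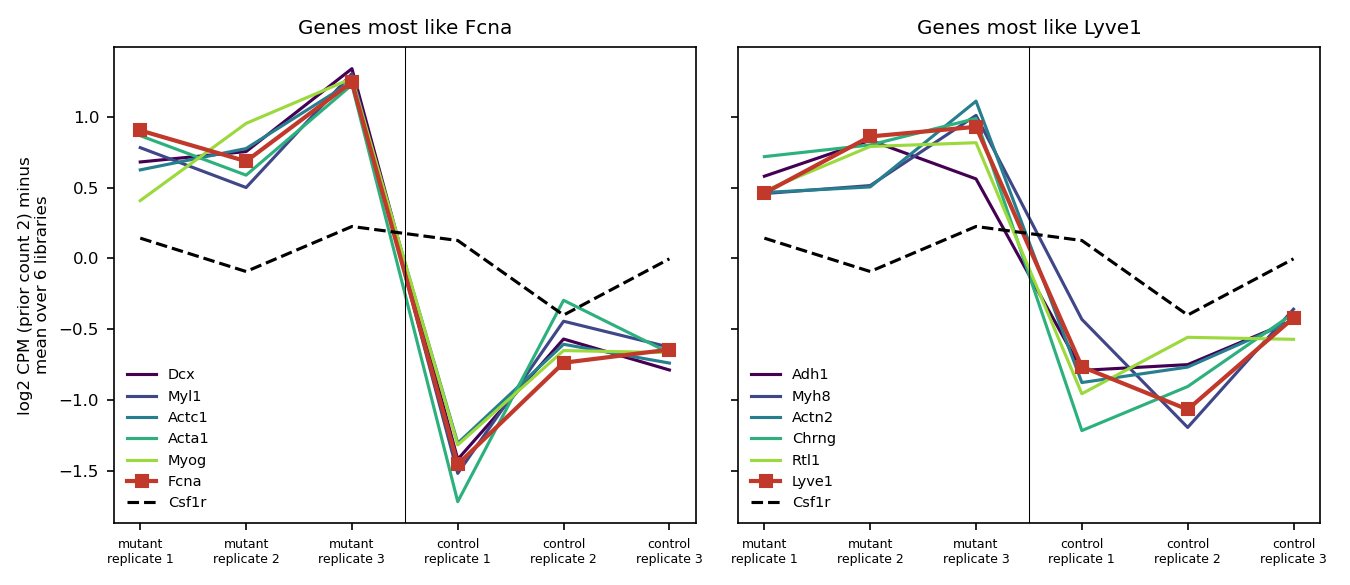
Log2 CPM with a prior count of 2, minus each gene's mean over the 6 libraries (vertical axis), for Fcna (left) and Lyve1 (right) in red with the 5 genes most like each, and Csf1r dashed for comparison. The 5 genes were picked as nearest to Fcna: like it they are highest in mutant replicate 3 and lowest in control replicate 1, where Csf1r is above its mean, while the order of the other libraries differs between them.

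Around ficolin A, the rest of the lectin pathway split. Of 8 tested genes 2 rose and 1 fell, where 8.63% of all genes tested were called higher and 9.13% lower. Masp2, the protease that ficolins carry, rose by 0.82 on the log2 scale (edgeR adjusted p = 0.0249, not called with DESeq2 or when control 1, control 3, mutant 2 or mutant 3 was left out, largest 0.112). C4b, which that protease cuts, rose by 0.57 (edgeR adjusted p = 0.0198, not called when control 3 or mutant 3 was left out, largest 0.0945). Masp1, a second protease of the pathway, fell to 40.6 CPM in mutants, against 69.8 CPM in controls (-0.79, edgeR adjusted p = 0.00603). Fcnb, the other mouse ficolin, and the mannose-binding lectin Mbl1 had no counts in any library. For Fcnb this allows up to 0.16 to 0.252 CPM, the level of 3 counts in a library.

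Other scavenger receptors and hyaluronan genes gave context for Stab1 and Lyve1. For both lists, 8.63% of all genes tested were called higher and 9.13% lower. Of 8 tested scavenger and folate receptor genes 3 rose and 1 fell. Scara3 (0.60, edgeR adjusted p = 0.000538) and Scara5 (0.78, edgeR adjusted p = 0.000736), receptors known from mesenchymal cells, rose, and Pla2r1, a relative of the mannose receptor, fell by 0.61 (edgeR adjusted p = 0.00895). Mrc2, a collagen uptake receptor of the Mrc1 family, chosen after its values were seen, had 303 to 371 CPM in mutants and 318 to 395 CPM in controls. Of 10 hyaluronan genes none rose by edgeR or DESeq2 (1 at an unadjusted p under 0.05) and 3 fell: the receptor Hmmr (-0.57), the synthase Has2 (-0.47) and the hyaluronan-binding proteoglycan Vcan (-0.36), with edgeR adjusted p-values of 0.00314, 0.00774 and 0.0166. Vcan lost its call without mutant replicate 2 (0.0573).

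Other blood cells were scarce. Of 10 monocyte and neutrophil markers 7 were under 1 CPM in all 6 libraries, and the summed list was 7.54 to 11.6 CPM in mutants and 3.52 to 9.09 CPM in controls. The tested one, Plac8, rose by 1.14 on the log2 scale (edgeR adjusted p = 0.0491), not called with limma-voom or when control 2, control 3, mutant 1 or mutant 3 was left out (largest 0.147). Dendritic and Langerhans cell markers summed to 8.91 to 13.6 CPM in mutants and 11.3 to 20.8 CPM in controls, with 6 of 10 under 1 CPM everywhere, and neither Cd74 (-1.30, edgeR adjusted p = 0.101, called by DESeq2) nor Zbtb46 (0.48, edgeR adjusted p = 0.145) was called by edgeR. Markers of T and B cells summed to 1.48 to 1.89 CPM in mutants and 1.93 to 3.01 CPM in controls, and Cd79a fell by 2.45 on the log2 scale (edgeR adjusted p = 0.00563, not called by DESeq2). Platelet and red cell markers summed to 12.5 to 17.2 CPM in mutants and 7.69 to 10.7 CPM in controls, and Itga2b had a log2 fold change of 0.47. Mast cell genes were plentiful: of 8 tested 4 rose and 2 fell, where 8.63% of all genes tested were called higher and 9.13% lower. Tpsb2 was at 1.24, Cpa3 at 1.01 and Cma1 at 0.77. The falls, chosen after their values were seen, were Tpsab1 (-1.84) and Kit (-1.03), with edgeR adjusted p-values of 0.0119 and 0.0342. The summed mast cell list was 117 to 138 CPM in mutants and 89.9 to 106 CPM in controls. Mast cell falls numbered 0 when control 3 was left out and 1 when control 2, mutant 1 or mutant 3 was. Among mural cell markers Kcnj8 (1.47) and Abcc9 (0.85) rose and none of 10 fell by edgeR or DESeq2 (1 at an unadjusted p under 0.05), and among dissociation response genes Jun rose by 0.58, while Hspa1a and Hspa1b, near-identical copies whose split is uncertain, fell by 1.86 and 2.40 on the log2 scale. The part of these cells and of handling in the members' levels was not tested.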

How the data were processed

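RNA was measured by sequencing in 6 libraries, 3 per genotype. The authors deposited whole-number read counts per Ensembl gene for each library, and 5 rows that name no gene, with 36.9% to 41.7% of the listed reads, were left out. Per the submitters' processing notes, reads were handled on mm9 with HTSeq 0.5.3, TopHat2 2.0.4, cutadapt 1.1, DESeq2 and FastQC among the programs listed, whose roles are not stated. Symbols were matched by identifier for 32919 of 37991 rows. Exon lengths and overlaps come from a later annotation (GENCODE M21, GRCm38), so apart from RefSeq promoter windows no coordinate is given.

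Counts were TMM-scaled, filtered with filterByExpr (minimum count 10, minimum total 15) and tested over all genes with edgeR 4.0.16 in R 4.3.3 (robust quasi-likelihood F test, group as the only term, Benjamini-Hochberg). Intervals are at the 95% level from that fit. A gene was called at an adjusted p under 0.05, and log2 fold changes are mutant over control. The fit was tested on simulated counts with known changes, at 1 fixed spread between libraries. It recovered 26.9% of 1.5-fold, 85.1% of 2-fold and 93.9% of 4-fold changes, so a small change can go uncalled. The simulated spread was smaller than that of several macrophage genes among controls, so these rates do not hold for such genes. Examples are C1qa (23.3 ± 12.3 CPM) and Lyz2 (31.4 ± 28.8 CPM), while Stab1 (75.1 ± 3.27 CPM) varied less (SD, n = 3). The limit that a count of 0 allows is 3 counts, and it covers counting error only.

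The members and all gene lists were chosen with earlier results of these data known. Named genes are the members, the 3 called genes of each list with the smallest adjusted p (or the 2 most abundant of those tested where none was called), and the 5 genes most like Fcna and Lyve1. One gene that this rule names is not reported here. Ms4a4a and Ccl21a matched no symbol. Alternatives were RLE size factors, DESeq2 1.42.0, limma-voom (limma 3.58.1), no filter, a replicate block and each library left out. Within groups, chi-square over degrees of freedom was 4.73 to 13.3 for pairs of libraries, above counting noise, so each library counted once.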

Additional observations from a re-analysis of the deposited data

How the results depend on the processing

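Fcna and Lyve1 kept their direction in all 11 alternatives, with log2 fold changes of 1.67 to 2.07 and 1.35 to 1.68 when 1 library was left out. Both were selected for their rise in these same libraries, so the kept direction adds no support. The shares of Fcna and Lyve1 in the pan-macrophage sum were 1.15 to 1.86 and 0.99 to 1.56 higher on the log2 scale with 1 library left out, a check added after the data were seen. These shares carry the selected levels, so they add no support either. Stab1 kept its call in all 11, and Mrc1, Cd163 and Csf1r were called in none. With 1 library left out, rises among the 8 other members numbered 1 to 3 and falls 0. Rises in the pan-macrophage list numbered 0 to 12 and falls 0 to 1, rises among other resident macrophage genes 2 to 4 and falls 2 to 4, rises among lymphatic markers 0 to 3 and falls 0 to 1, and rises among blood endothelial markers 4 to 8. Rises of muscle markers numbered 7 to 9, and rises and falls of mast cell markers 3 and 0 to 2. With no filter, rises among the 8 members numbered 3, with Folr2 gained, pan-macrophage rises numbered 3 and falls 2, rises among other resident macrophage genes 7, lymphatic falls 2 and mast cell falls 1. With DESeq2, pan-macrophage falls numbered 1 and lymphatic falls 0. The pan-macrophage sum, higher in mutants by 0.09 on the log2 scale, ran from -0.13 to 0.51 with 1 library left out and turned without control replicate 2 (-0.13) and control replicate 3 (-0.04). Cd163 ran from -0.14 to 0.22 and turned without control replicate 2 (-0.14) and mutant replicate 3 (-0.01). Over all genes, calls with 1 library left out numbered 658 to 1199 higher and 753 to 1500 lower, beside 1298 and 1372 with all 6. The cause was not tested beyond the values given for control replicate 1.

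The replicate numbers did not pair the libraries: deviations from the group means correlated at 0.12, -0.03 and -0.09 for numbers 1 to 3, and only mutant replicate 1 correlated best with its own number. With the replicate block, lymphatic rises numbered 1 and falls 0, rises among other resident macrophage genes 6, and the other list counts stayed within 1.5 times.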
